A study of Homo sapiens with 12 samples.

Results

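The 60 genes described here build and police the mitotic spindle in MOLT4 cells, an established human T lymphoblast line derived from acute lymphoblastic leukaemia. They were taken from a fixed list of mitotic cyclins and kinases, CDC25 phosphatases, checkpoint and anaphase-promoting complex factors, cohesion factors, centromere and kinetochore proteins, kinesins, spindle assembly and cytokinesis factors, 4 chromosome structure and proliferation genes, and the transcription factor FOXM1. Of the 60 genes, 41 were in the authors' deposited table, which lists 5759 genes. The 12 RNA-seq libraries fell into 4 groups of 3. One group received DMSO, the vehicle, for 6 h. Compound 955 at 0.1 µM was applied for 1 h in the second group and for 6 h in the third, and the last group had 6 h of SNS-032 at 1 µM. SNS-032 blocks several cyclin-dependent kinases, among them CDK9, which promotes transcript elongation by RNA polymerase II, and 955 joins SNS-032 to piperlongumine. The doses of the 2 compounds differ. Vehicle libraries exist for 6 h alone, so in the 1 h comparison the treatment and the collection time cannot be told apart. Nothing in the labels says that the 3 libraries of a group came from separate cultures, so the p-values measure only the spread between these libraries, which may be technical.

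Mitosis is driven by cyclin B bound to CDK1, helped by the Polo-like and Aurora kinases. Kinetochores couple each chromosome to spindle microtubules, and while any kinetochore is unattached the spindle checkpoint holds CDC20 away from the anaphase-promoting complex (APC/C), the ubiquitin ligase that then marks securin and the cyclins for destruction. Many genes of this programme are transcribed late in the cell cycle under the DREAM and MuvB complexes, which bind a short promoter element called the cell cycle genes homology region (CHR), and under NF-Y, which binds the CCAAT box. Their mRNAs are known to vary with the phase of the cycle, which makes the level in an unsorted culture a mixture over phases.

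A gene is called higher or lower here when the authors' deposited table gave an FDR under 0.05 and a log2 fold change of at least 1 in absolute size. The table holds comparisons with DMSO and no value per library, so no group mean, SD or overlap of groups can be given. The standard error (SE) beside a log2 fold change is the one implied by the deposited F statistic. A gene's place in the table was itself decided by change: each of the 5759 listed genes had an FDR under 0.05 in at least 1 of the 3 comparisons, and the smallest of their largest absolute log2 fold changes was 1.001. The ranks of the deposited p-values correspond to 28395 tests, so 20.3% of tested genes were listed. Counts over the 41 listed genes are therefore a description of genes that had to change somewhere. The 19 mitotic genes that are not analysed here were BUB1B, MAD2L1, CDC25C, ESPL1, BIRC5, INCENP, CENPI, CENPU, NUF2, KNL1, KIF2C, KIF4A, KIF15, KIF18A, TACC3, PRC1, ANLN, MKI67 and FOXM1.

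At 6 h the listed mitotic genes were lower under both treatments and none was higher. The authors' deposited table called 39 of the 41 lower with 955, where 50.1% of all listed genes were called lower and 35.2% higher. With SNS-032 it called 40 of the 41 lower, beside 52.5% of all listed genes lower and 37.8% higher. All 41 had an FDR under 0.05 and a negative log2 fold change in both 6 h comparisons, which held for 54.8% (955) and 56.6% (SNS-032) of all listed genes. Over the 41 genes, the median log2 fold change in the authors' deposited table was -2.01 with 955 and -2.03 with SNS-032, against -1.03 and -1.07 over all listed genes. A log2 fold change of -2 or below was listed for 21 of the 41 genes with each treatment, a depth reached by 15.9% of all listed genes with 955 and 19.0% with SNS-032. At 1 h the authors' deposited table called 2 of the 41 lower and none higher, beside 7.71% of all listed genes called lower and 0.729% called higher. In an unsorted culture, fewer cells in late cycle phases and less of these mRNAs per cell cannot be told apart.

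**Figure D1:**
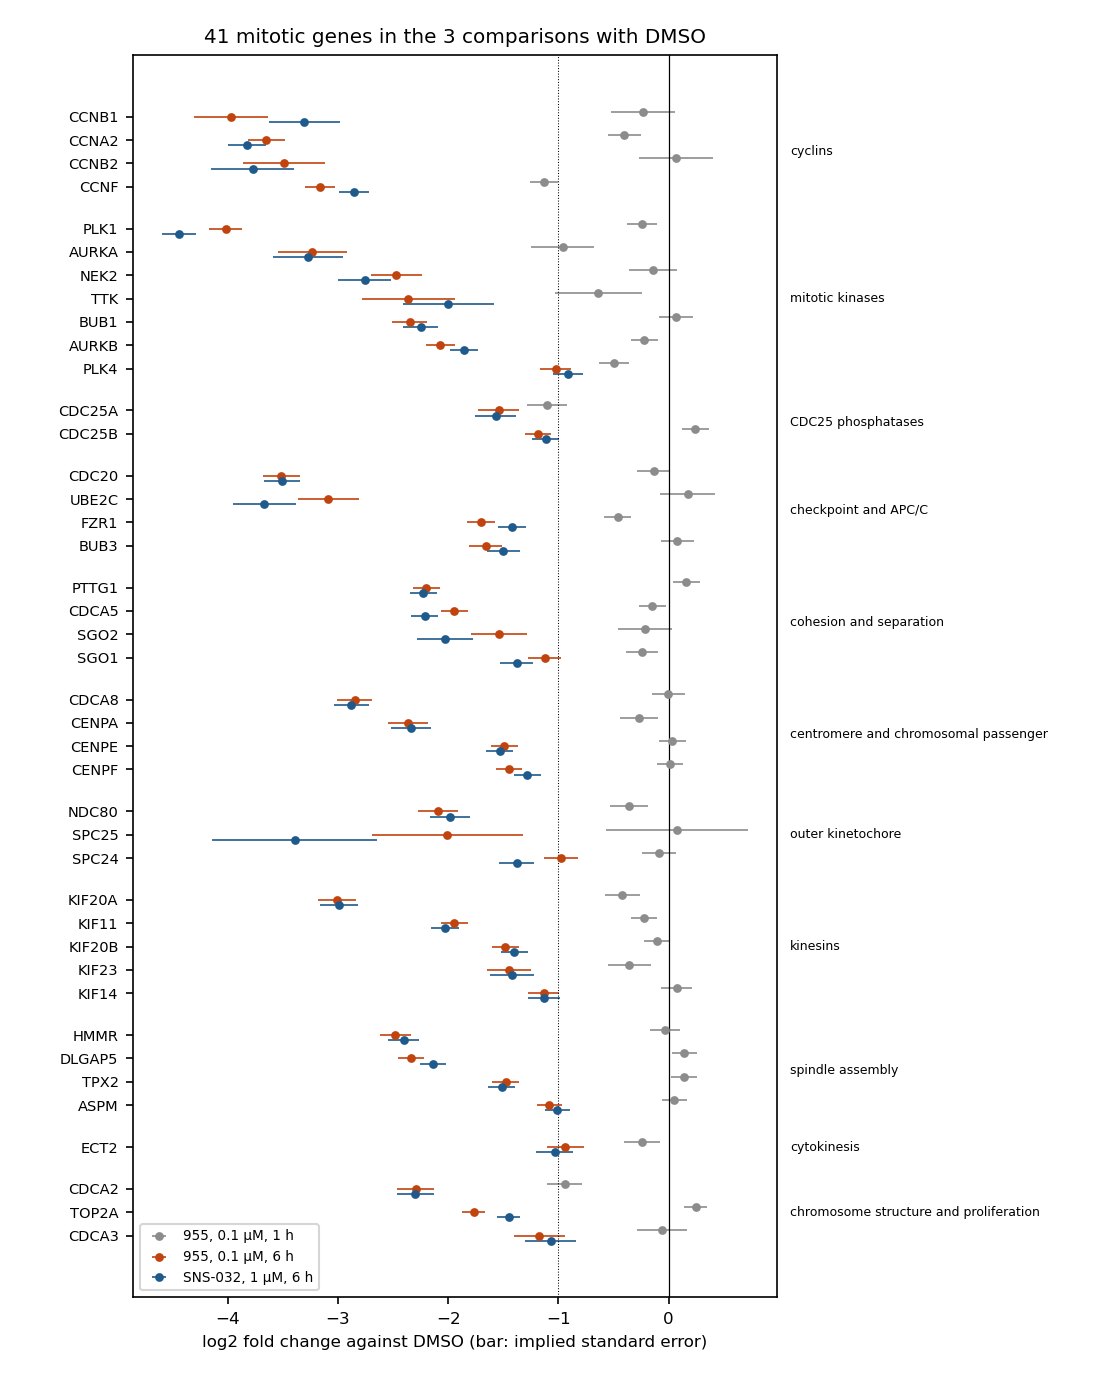
Log2 fold change against DMSO (horizontal axis) of the 41 listed mitotic genes, grouped by role, from the authors' deposited table; grey points are 955 at 1 h, orange 955 at 6 h and blue SNS-032 at 6 h, and bars are 1 implied standard error on either side. The orange and blue points lie left of the dotted line at -1 for 39 and 40 genes, and PLK1 lies farthest left under both treatments, whereas the grey points lie between -1.13 and 0.25.

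**Figure D2:**
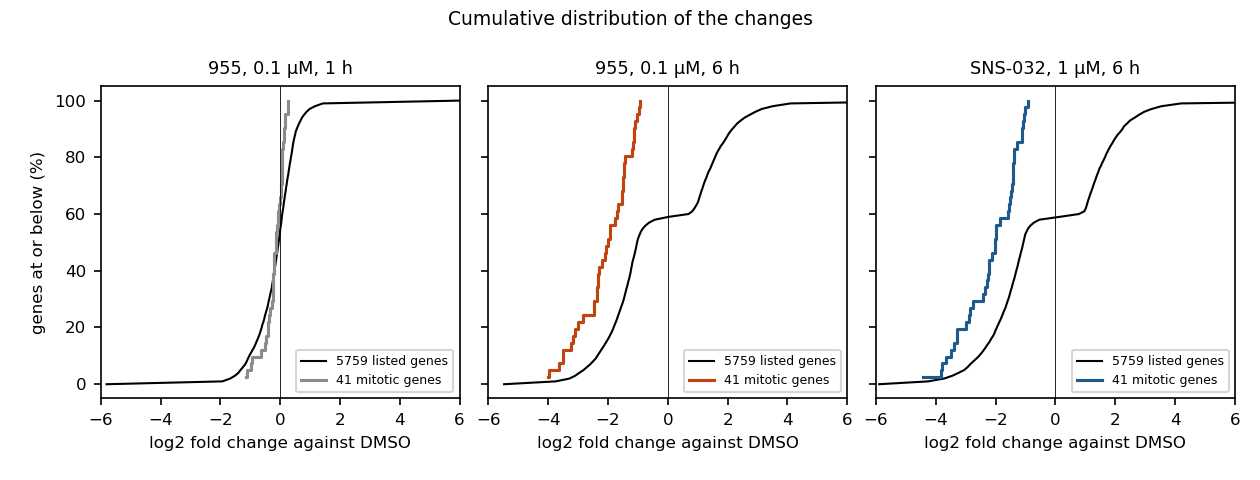
Cumulative share of genes (vertical axis, percent) at or below each log2 fold change (horizontal axis, drawn from -6 to 6) in the 3 comparisons with DMSO, for the 41 mitotic genes (coloured steps) and all 5759 listed genes (black). At 6 h the mitotic genes all lie below 0, with medians of -2.01 and -2.03. The black curves extend to both sides of 0, with medians of -1.03 and -1.07 and maxima beyond the axis.

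These directions rest on how the libraries were scaled to one another. The 13 mitochondrially encoded mRNAs, which a separate polymerase makes, were higher by a median of 2.07 (955) and 2.35 (SNS-032) on the log2 scale at 6 h in the authors' deposited table. Measured against them, all 41 mitotic genes were called lower at 6 h with either compound and their medians were -4.08 and -4.37. Measured against the median listed gene, 19 of the 41 were called lower with 955 and 18 with SNS-032, and none was called higher. The medians on that scale were -0.98 and -0.96. The shares of all listed genes called under these 2 scalings are not given here, so these counts have no background beside them. The median of the group at 6 h was below 0 under all 3 scalings, but this is no separate support for a fall. The 41 values were all negative before the mitochondrial scaling, which only lowered them further. The median listed gene is no fixed reference either, because listing required a change. Against the median listed gene 5 values came to lie above 0: ECT2 (0.09) and SPC24 (0.05) with 955, and PLK4 (0.16), ASPM (0.06) and ECT2 (0.04) with SNS-032.

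Promoter windows are shown for the 5 mitotic genes with the largest falls with 955 and the 2 with the smallest falls among those having a single start window in the RefSeq promoter table (assembly GRCh38.p14, the build that the submitters' notes call hg38). They show how the CHR-type and CCAAT elements are placed in genes at the ends of the range. Each is the 150 bases before the RefSeq start, read 5′ to 3′ on the gene's strand. Capitals mark the motifs searched on both strands, which were the CCAAT box, written ATTGG when it lies on the other strand, and CHR-type hexamers. The hexamers were TTTGAA, written TTCAAA when it lies on the other strand, and the palindromes TTTAAA and also TTCGAA. Matches that overlap one another were each counted. The windows are, in this order, chr16:23678739-23678888 (plus strand) for PLK1, chr5:69167000-69167149 (plus) for CCNB1, chr4:121823884-121824033 (minus) for CCNA2, chr1:43358831-43358980 (plus) for CDC20, chr15:59104996-59105145 (plus) for CCNB2, chr1:197146670-197146819 (minus) for ASPM and chr19:11155783-11155932 (minus) for SPC24.
PLK1: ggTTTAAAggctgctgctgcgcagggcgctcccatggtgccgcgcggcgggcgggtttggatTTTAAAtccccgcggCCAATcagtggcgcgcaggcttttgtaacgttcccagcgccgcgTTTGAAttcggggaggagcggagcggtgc
CCNB1: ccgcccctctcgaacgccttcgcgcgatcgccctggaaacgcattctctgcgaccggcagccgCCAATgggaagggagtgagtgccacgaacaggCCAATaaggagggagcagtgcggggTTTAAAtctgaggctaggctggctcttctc
CCNA2: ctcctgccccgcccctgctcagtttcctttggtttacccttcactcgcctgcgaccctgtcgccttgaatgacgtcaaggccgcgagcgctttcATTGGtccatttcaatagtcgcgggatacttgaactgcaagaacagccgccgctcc
CDC20: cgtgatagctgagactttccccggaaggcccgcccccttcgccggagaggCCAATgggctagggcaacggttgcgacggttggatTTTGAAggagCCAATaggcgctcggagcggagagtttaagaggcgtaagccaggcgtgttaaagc
CCNB2: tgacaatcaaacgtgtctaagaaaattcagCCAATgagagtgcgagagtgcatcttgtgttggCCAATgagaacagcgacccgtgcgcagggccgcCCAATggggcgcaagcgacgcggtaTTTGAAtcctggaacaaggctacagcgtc
ASPM: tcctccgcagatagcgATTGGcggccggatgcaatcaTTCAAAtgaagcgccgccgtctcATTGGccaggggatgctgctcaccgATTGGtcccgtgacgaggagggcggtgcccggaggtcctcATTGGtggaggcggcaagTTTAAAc
SPC24: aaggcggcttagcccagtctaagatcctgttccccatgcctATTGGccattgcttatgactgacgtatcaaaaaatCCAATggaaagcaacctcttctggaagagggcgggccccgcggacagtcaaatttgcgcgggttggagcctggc
In the CCNB2 window 3 CCAAT boxes began at -120, -87 and -54 from the start, followed by TTTGAA at -29. The CCNB1 window had CCAAT at -87 and -55 and TTTAAA at -30. PLK1 had 1 CCAAT box at -73 with TTTGAA at -29 and 2 further TTTAAA hexamers upstream. CCNA2 and SPC24 had none of the searched hexamers in the stretch shown. The hexamer CTTGAA, which stands in the CCNA2 stretch, was not searched, so the lack of a CHR cannot be read from this. ASPM, whose mRNA fell little, carried 4 CCAAT boxes and 2 hexamers, so in the windows shown the number of matches did not follow the depth of fall.

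Over the full windows, 250 bases before to 50 bases after the start, 35 of the 41 listed mitotic genes had a window in the RefSeq table, 28 of them a single one, and a match in any window of a gene was counted. A CHR-type hexamer was present in 30 of these 35 genes (85.7%), against 29.0% of all 27305 genes with a window. A CCAAT box was present in 31 (88.6%), against 39.7%, and 2 or more CCAAT boxes in 20 (57.1%), against 12.9%. Both kinds stood in 1 window in 25 genes (71.4%), against 11.7% of all genes and 10.7% of the 2430 listed genes that were called lower with 955 at 6 h. The 16 mitotic genes outside the deposited table that have a window held a hexamer in 13 (81.2%) and a CCAAT box in 9 (56.2%), so the hexamer was common in both sets. Among the 35 genes, 2 or more CCAAT boxes were found in 13 of the 17 with a log2 fold change of -2 or below with 955 (76.5%) and in 7 of the 18 above -2 (38.9%). The hexamer did not follow that order: it was present in 14 of 17 (82.4%) and 16 of 18 (88.9%). SPC25, counted among the 13, lay close to the cut at -2.007 (SE 0.685), and the split was not tested. A match is a run of letters and not evidence of binding, and a CHR of a sequence outside those searched was not counted.

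**Figure D3:**
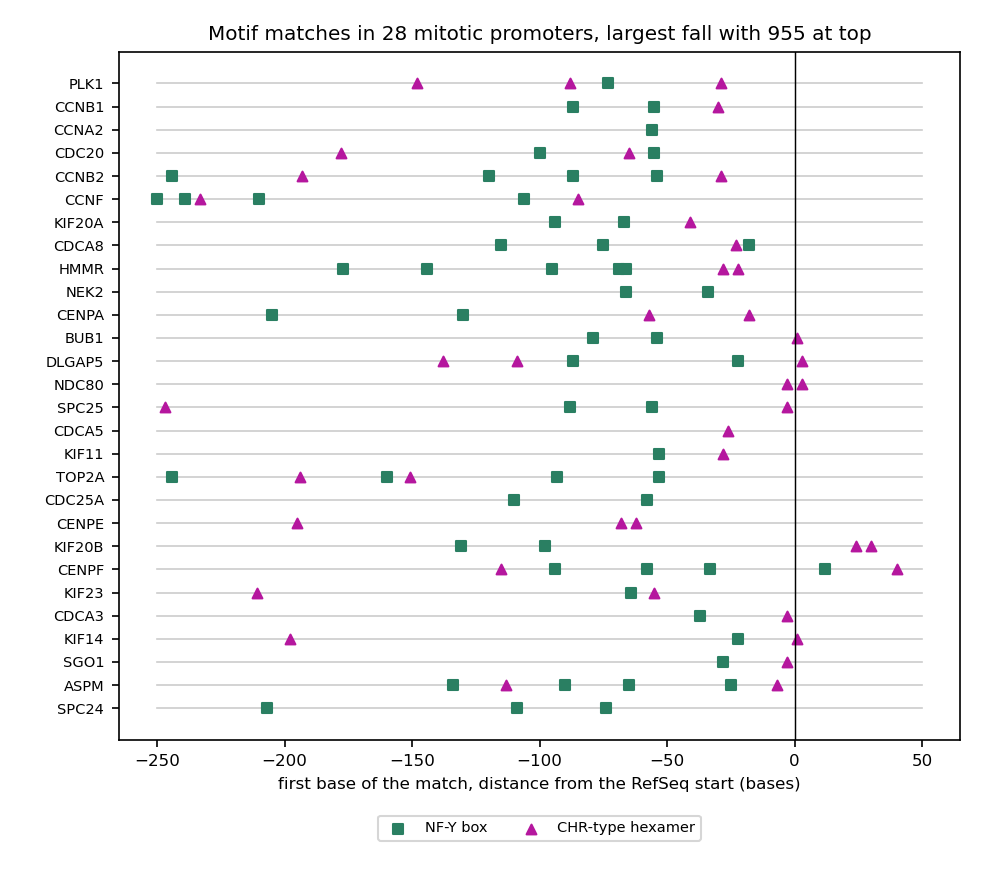
First base of each CCAAT box (green squares) and CHR-type hexamer (purple triangles) relative to the RefSeq start (horizontal axis, bases) in the 28 listed mitotic genes with a single promoter window, ordered from the largest fall with 955 at 6 h (top) to the smallest. In most rows squares lie upstream of a triangle near the start, with the match nearest the start at a median of -55 for the CCAAT box and -22.5 for the hexamer.

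The cyclins fell the furthest of the role groups, with a median log2 fold change over 4 of 4 genes of -3.57 with 955 and -3.54 with SNS-032 at 6 h. CCNB1 (gene ID 891), the cyclin that carries CDK1 into mitosis, was listed at -0.23 (SE 0.29, FDR 1) after 1 h of 955, -3.97 (SE 0.33, FDR 3.8e-06) after 6 h and -3.31 (SE 0.32, FDR 1.2e-05) with SNS-032 by the authors' deposited table. These correspond to 15.7-fold and 9.88-fold lower mRNA at 6 h. CCNB2 (9133), the second B-type cyclin, was listed by the authors' deposited table at 0.07 (SE 0.34, FDR 1), -3.49 (SE 0.37, FDR 5.3e-05) and -3.78 (SE 0.38, FDR 3.15e-05) in the same order. CCNA2 (890), the S and G2 phase cyclin, stood in the authors' deposited table at -0.40 (SE 0.15, FDR 0.178), -3.65 (SE 0.17, FDR 1.94e-13) and -3.83 (SE 0.17, FDR 7.14e-14). The B-type cyclins had less precise estimates than CCNA2. CCNF (899), which encodes the substrate receptor of an SCF ubiquitin ligase, differed from the other cyclins in being called at 1 h, at -1.13 (SE 0.13, FDR 7.74e-06) in the authors' deposited table. By 6 h the same table gave CCNF -3.17 (SE 0.14, FDR 4.29e-14) with 955 and -2.86 (SE 0.14, FDR 1.09e-13) with SNS-032.

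The 7 mitotic kinases spanned most of the range of the group. PLK1 (5347), the Polo-like kinase that acts from centrosome maturation to cytokinesis, had the largest fall of all listed mitotic genes under both treatments. The authors' deposited table gave PLK1 -0.24 (SE 0.13, FDR 0.523) at 1 h, -4.02 (SE 0.15, FDR 7.33e-15) with 955 at 6 h and -4.44 (SE 0.15, FDR 6.43e-16) with SNS-032, that is 16.2-fold and 21.7-fold lower at 6 h. It was the only one of the 41 at -4 or below in either 6 h comparison. AURKA (6790), the spindle-pole Aurora kinase, was listed at -0.96 (SE 0.29, FDR 0.11) at 1 h, -3.24 (SE 0.31, FDR 7.92e-06) with 955 and -3.27 (SE 0.31, FDR 6.75e-06) with SNS-032 by the authors' deposited table. AURKB, the centromeric Aurora kinase, fell less in the authors' deposited table, to -2.07 (FDR 1.12e-11) with 955 and -1.86 with SNS-032. NEK2, a centrosome kinase, TTK, the kinase that starts the spindle checkpoint, and BUB1, the checkpoint kinase at kinetochores, lay close together at -2.47, -2.36 and -2.35 with 955 at 6 h in the authors' deposited table. PLK4 (10733), which controls centriole duplication rather than the spindle itself, fell least of the kinases. The authors' deposited table listed PLK4 at -0.50 (SE 0.14, FDR 0.0359) at 1 h, -1.03 (SE 0.14, FDR 1.75e-06) with 955 at 6 h and -0.91 (SE 0.14, FDR 8.35e-06) with SNS-032, which left it short of the fold bound with SNS-032.

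The CDC25 phosphatases, which remove the inhibitory phosphates that WEE1 places on cyclin-dependent kinases, split by time. CDC25A (993) was called after 1 h, at -1.10 (SE 0.18, FDR 0.000535), and the authors' deposited table gave -1.54 (SE 0.19, FDR 3.3e-07) at 6 h and -1.57 (SE 0.19, FDR 2.32e-07) with SNS-032. CDC25B was listed at 0.24 (SE 0.12, FDR 0.42) at 1 h and at -1.19 (SE 0.12, FDR 2.95e-08) and -1.12 (FDR 6.56e-08) at 6 h in the authors' deposited table. CDC25A was thus low at both times, whereas CDC25B was low at 6 h alone.

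Of the checkpoint and APC/C group, 4 of 6 genes were listed, with medians of -2.40 and -2.50. The 2 that feed ubiquitin transfer in mitosis fell the most. CDC20 (991), the mitotic activator of the APC/C and the target of the checkpoint, was given in the authors' deposited table as -0.14 (SE 0.15, FDR 0.94) at 1 h, -3.52 (SE 0.17, FDR 5.92e-13) with 955 and -3.51 (SE 0.17, FDR 3.56e-13) with SNS-032, 11.4-fold lower in both. UBE2C (11065), the ubiquitin-conjugating enzyme of the APC/C, was given in the authors' deposited table as 0.17 (SE 0.25, FDR 1), -3.09 (SE 0.28, FDR 3.09e-06) and -3.67 (SE 0.28, FDR 7.76e-07). FZR1, the activator that replaces CDC20 after anaphase and through G1, fell less, with -0.46 (FDR 0.0304), -1.71 (FDR 1.9e-10) and -1.42 (FDR 2.44e-09) in the authors' deposited table. BUB3, a checkpoint scaffold protein, stood at -1.66 (FDR 4.39e-09) with 955 and -1.50 with SNS-032 by the authors' deposited table.

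Genes of sister chromatid cohesion and its release fell by intermediate amounts, with medians of -1.74 and -2.12 over 4 of 5 genes. PTTG1, which encodes securin, the inhibitor of separase, was listed at 0.16 (FDR 0.727) at 1 h, -2.20 (SE 0.12, FDR 2.19e-12) with 955 and -2.23 (FDR 1.3e-12) with SNS-032 by the authors' deposited table. CDCA5, which encodes the cohesin protector sororin, was at -1.95 (FDR 1.23e-11) and -2.21 in the authors' deposited table. The shugoshins, which guard centromeric cohesin, fell less with 955: the authors' deposited table gave SGO2 -1.54 (SE 0.25, FDR 0.00025) and SGO1 (151648) -1.12 (SE 0.15, FDR 1.24e-06). With SNS-032 the authors' deposited table gave SGO2 -2.03 (FDR 2.16e-05) and SGO1 -1.38 (FDR 5.72e-08).

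At the centromere and kinetochore, 7 of 13 genes were listed. CDCA8 (55143), which encodes borealin of the chromosomal passenger complex, had the largest fall there with 955. It was listed at -0.001 (SE 0.15, FDR 1) at 1 h, -2.85 (SE 0.16, FDR 1.64e-12) with 955 and -2.88 (SE 0.16, FDR 9.94e-13) with SNS-032 by the authors' deposited table. CENPA, the histone H3 variant that marks centromeres, was at -2.36 (FDR 3.72e-10) and -2.34 in the authors' deposited table. The large kinetochore proteins CENPE, a plus-end kinesin, and CENPF fell less in the authors' deposited table, to -1.49 (FDR 8.8e-10) and -1.45 (SE 0.12, FDR 1.13e-09) with 955. The NDC80 complex, which grips the microtubule end, was represented by 3 subunits that fell unequally with 955. In the authors' deposited table NDC80 stood at -2.09 (SE 0.18, FDR 2.19e-09), SPC25 at -2.01 (SE 0.68, FDR 0.048) and SPC24 (147841) at -0.97 (SE 0.16, FDR 1.92e-05). SPC25 was the least abundant listed mitotic gene, with a deposited average level of 1.99 log2 CPM, and its SE was the largest. With SNS-032 the authors' deposited table gave SPC25 -3.39 (SE 0.75, FDR 0.0037) and SPC24 -1.38 (SE 0.16, FDR 1.3e-07).

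The kinesins (5 of 9 listed) fell by a median log2 value of 1.48 with 955, and the spindle assembly factors (4 of 5 listed) by 1.91. KIF20A (10112), the kinesin that carries the passenger complex to the central spindle, was an exception, at -0.42 (SE 0.16, FDR 0.184) at 1 h, -3.01 (SE 0.17, FDR 2.93e-12) with 955 and -2.99 (SE 0.17, FDR 2.2e-12) with SNS-032 by the authors' deposited table. KIF11, the motor that slides spindle poles apart, was at -1.94 (FDR 1.32e-11) and -2.03 in the authors' deposited table. KIF20B, KIF23, the centralspindlin motor, and KIF14, a cytokinesis kinesin, followed in the authors' deposited table at -1.48, -1.45 and -1.13 with 955 and -1.40, -1.42 and -1.13 with SNS-032. Among spindle assembly factors, HMMR, a microtubule-binding partner of TPX2, fell the most, with -0.03 (FDR 1), -2.48 (SE 0.14, FDR 2.71e-12) and -2.40 (FDR 2.8e-12) in the authors' deposited table. DLGAP5, a stabiliser of kinetochore fibres, was at -2.34 (FDR 5.41e-13) and -2.13, and TPX2, the activator of AURKA, at -1.48 (FDR 1.11e-09) and -1.51, in the authors' deposited table. ASPM, a spindle-pole protein, fell least of this group in the authors' deposited table, at -1.08 (SE 0.12, FDR 4.82e-08) with 955 and -1.01 (FDR 1.28e-07) with SNS-032, 2.12-fold and 2.01-fold lower.

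ECT2 (1894), the exchange factor that activates RhoA for furrowing, was the only listed cytokinesis gene and had the smallest fall of the 41 with 955. The authors' deposited table gave ECT2 -0.24 (SE 0.17, FDR 0.692) at 1 h, -0.94 (SE 0.17, FDR 8.44e-05) with 955 at 6 h and -1.03 (SE 0.17, FDR 2.49e-05) with SNS-032. Of the remaining chromosome genes, CDCA2 (157313), which targets protein phosphatase 1 to chromatin at mitotic exit, was given as -0.94 (SE 0.16, FDR 0.000648), -2.30 (SE 0.17, FDR 1.1e-10) and -2.30 (FDR 8.05e-11) in the authors' deposited table. TOP2A (7153), the topoisomerase that untangles sister chromatids, was listed at 0.25 (SE 0.11, FDR 0.277), -1.77 (SE 0.11, FDR 6.74e-12) and -1.45 (SE 0.11, FDR 1.09e-10) in the authors' deposited table. CDCA3, an F-box-like cell cycle protein, stood at -1.17 (SE 0.23, FDR 0.00112) and -1.07 (FDR 0.0022) at 6 h in the authors' deposited table.

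Depth of fall varied with gene length. The 20 listed mitotic genes with the shorter genomic spans, 4.22 to 26.3 kb, had median log2 fold changes of -2.42 with 955 and -2.55 with SNS-032. The 21 longer genes, 28.9 to 92.5 kb, had medians of -1.71 and -1.57. Values of -2 or below were found in 13 of the 20 shorter genes and 8 of the 21 longer ones under each treatment. Across the 41 genes, which share their libraries, log10 span and log2 fold change had a Pearson r of 0.49 and a Spearman rho of 0.46 with 955, and 0.48 and 0.44 with SNS-032, in the sense that longer genes fell less. Over the 5270 listed protein-coding genes the same r was 0.07 and 0.10, and over the 3248 of them with a negative value with 955, as all 41 mitotic genes had, it was 0.19 and 0.33. Spliced transcript length gave r of 0.48 and 0.58 in the mitotic genes, so genomic span and mRNA length cannot be told apart here. It gave 0.09 and 0.10 over 5079 listed protein-coding genes, and 0.22 and 0.26 over the 3168 with a negative value with 955. Exon number gave r of 0.30 and 0.42 in the mitotic genes. Over the same 5079 and 3168 genes, exon number gave 0.29 and 0.34, and 0.11 and 0.27, so a relation with exon number was not particular to the mitotic genes. CDC20 and UBE2C, the shortest genes, were among those that fell most, whereas the short genes SPC24 and CDCA3 fell little. 

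**Figure D4:**
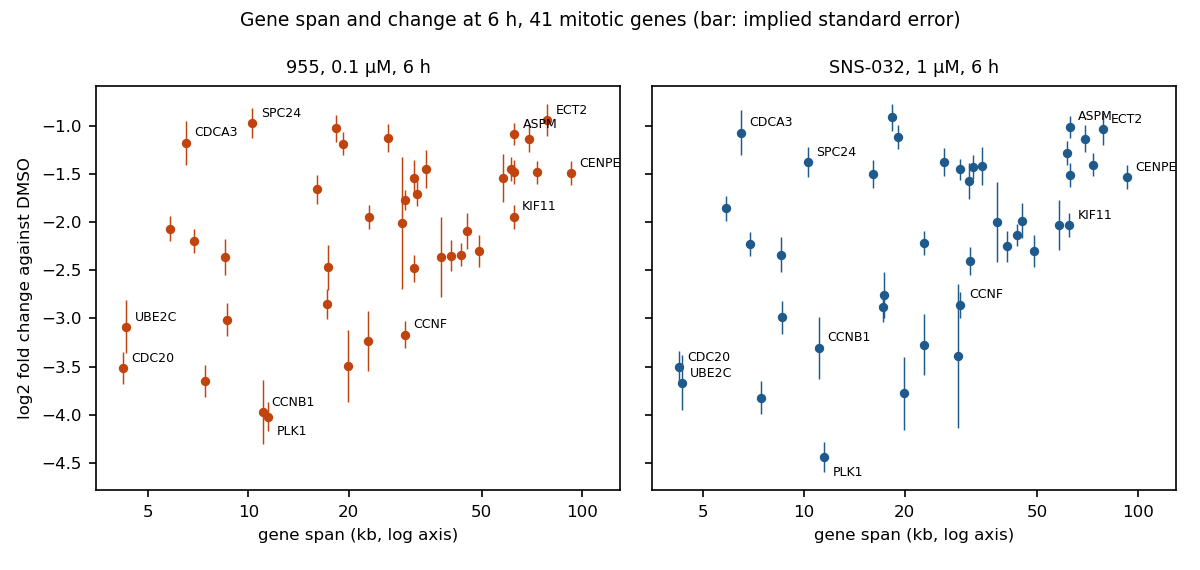
Log2 fold change against DMSO at 6 h (vertical axis, with 1 implied standard error on either side) against genomic span (horizontal axis, kb, log scale) of the 41 listed mitotic genes for 955 (left) and SNS-032 (right). The points below -3 are mostly genes of 26.3 kb or less, and SPC24 and CDCA3 are short genes with small falls.

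After 1 h of 955, 2 of the 41 mitotic genes were called lower, beside 7.71% of all listed genes. The low count at 1 h was thus not particular to the mitotic genes. It depends on the scaling: against the mitochondrial mRNAs it was 10, with no share over all listed genes given here. The median of the 41 on that scale was -0.82. As deposited, the median log2 fold change of the 41 was -0.14 in the authors' deposited table, against -0.05 over all listed genes. Of the 41 values, 27 were negative. The calls were CCNF and CDC25A, described above. Without the fold bound, 5 of the 41 had an FDR under 0.05, all lower, beside 11.9% of all listed genes that were lower at that FDR: CCNF, CDC25A, CDCA2, PLK4 and FZR1. Of the 10 genes that fell by 2.85 or more on the log2 scale with 955 at 6 h, PLK1, CCNB1, CCNB2, CDC20, UBE2C and CDCA8 had an FDR of 0.523 or above at 1 h in the authors' deposited table. AURKA, CCNA2 and KIF20A had 1 h FDRs of 0.11, 0.178 and 0.184 there, and CCNF was called.

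The change between the 2 times of 955 was assessed as the difference of the deposited log2 fold changes, in which the shared DMSO group cancels. This approximate contrast used the root mean square of both implied SEs, with Benjamini-Hochberg adjustment over the 5759 listed genes. Of the 41 mitotic genes, 36 were called lower at 6 h than at 1 h and none higher, beside 35.6% of all listed genes called lower and 27.0% called higher in this contrast. The median difference was -1.74, against -0.45 over all listed genes. CCNB1 differed by -3.74 (SE 0.31, adjusted p 1.13e-06 by the approximate contrast) and CCNF by -2.04 (SE 0.13, adjusted p 6.35e-12 by the same contrast). The 5 genes not called were CDC25A, PLK4, SPC24, ECT2 and SGO1. For CDC25A the difference was -0.44 (SE 0.18, adjusted p 0.0315 by the approximate contrast), and for PLK4 it was -0.53 (adjusted p 0.00123).

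The 6 h groups of 955 at 0.1 µM and SNS-032 at 1 µM were set side by side in the same way. At these unequal doses no mitotic gene was called different between the treatments, beside 1.11% of all listed genes. At an unadjusted p under 0.05 there were 6 of the 41 genes, beside 14.8% of all listed genes. These were PLK1, SPC24 and CDCA5, with positive differences, and TOP2A, CCNF and FZR1, with negative ones, and none of them passed after adjustment. The smallest adjusted p was that of TOP2A, with a difference of -0.32 (95% interval -0.54 to -0.10, adjusted p 0.132 by the approximate contrast). PLK1 differed by 0.42 (95% interval 0.11 to 0.73, adjusted p 0.168 by the same contrast). The median difference over the 41 genes was -0.01, with 22 negative and 19 positive. For 35 of the 41 genes the whole 95% interval lay between -1 and 1, and the intervals of CCNB1, CCNB2, TTK, UBE2C, SGO2 and SPC25 reached beyond. The widest was that of SPC25, from -0.19 to 2.96, so for these 6 genes a 2-fold difference between the treatments was not resolved at this precision.

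**Figure D5:**
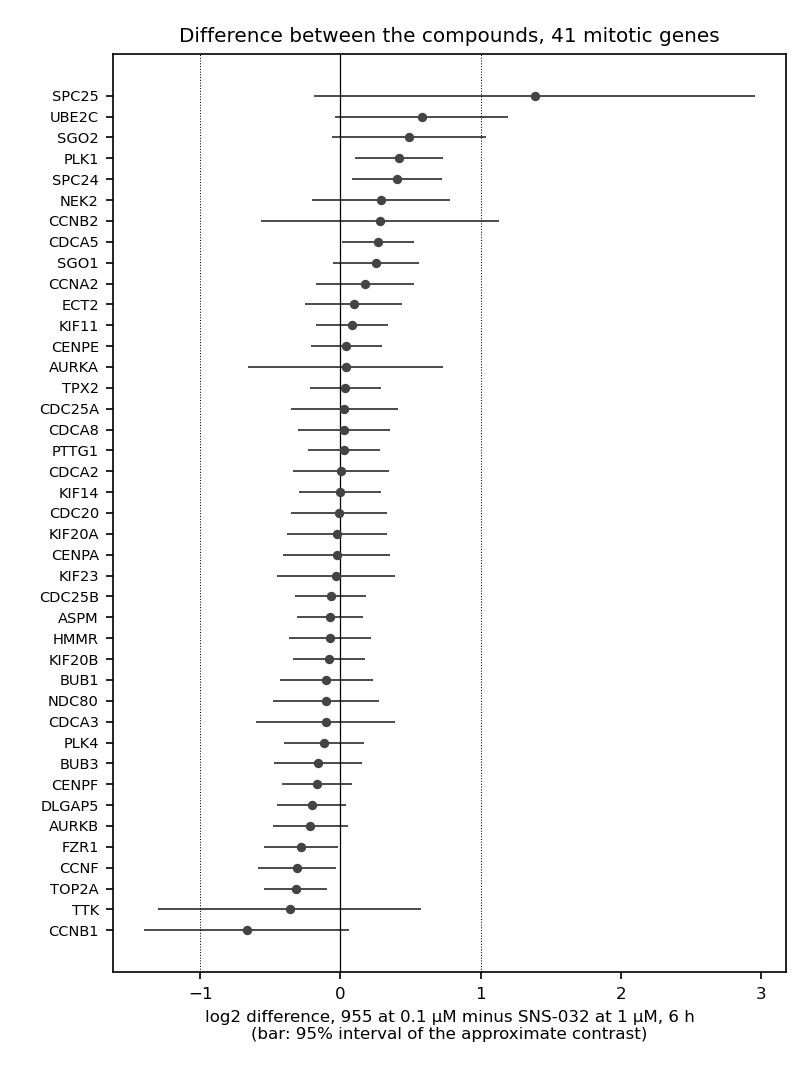
Difference in log2 fold change between 955 at 0.1 µM and SNS-032 at 1 µM after 6 h (horizontal axis; values above 0 mean less lowering with 955) for the 41 listed mitotic genes, with 95% intervals of the approximate contrast. The points scatter on both sides of 0 with a median of -0.01, and the intervals of 35 genes lie between the dotted lines at -1 and 1.

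Other genes of the same machinery, from lists written for this comparison, mostly moved the same way at 6 h. Over all listed genes, 50.1% were called lower and 35.2% higher with 955. With SNS-032 these shares were 52.5% and 37.8%, and they stand beside the counts of every list below. Of the condensin and cohesin genes, 7 of 20 were listed and all 7 were called lower with both treatments. They were led with 955 by the cohesin ring subunit SMC3 at -1.85 and -1.96 and the cohesin release factor WAPL at -1.77 and -1.62 in the authors' deposited table. APC/C subunits and regulators had 10 of 20 listed, of which 9 were called lower and 1 higher with 955, and 8 lower with SNS-032. The largest falls there with 955 were MAD2L1BP, which silences the checkpoint, at -3.05 and -3.53, and the subunit ANAPC13 at -2.33 and -2.67 in the authors' deposited table. ANAPC16, named after its value was seen, was the one that rose, at 1.05 (SE 0.12, FDR 1.84e-07) with 955 in the authors' deposited table.

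Other kinetochore and centromere genes had 14 of 31 listed, with 12 called lower and 1 higher with 955, and 12 lower and 2 higher with SNS-032. Of all listed genes, 50.1% and 52.5% were called lower, and 35.2% and 37.8% higher. CENPL and CENPW, of the inner kinetochore, were at -2.73 and -2.67 with 955 in the authors' deposited table. KNTC1, named after its value was seen, encodes a subunit of the complex that brings dynein to kinetochores and rose to 1.76 (SE 0.11, FDR 1.08e-11) with 955 and 1.87 (SE 0.11, FDR 3.31e-12) with SNS-032 by the authors' deposited table. CENPH, also named after its value was seen, was at 0.95 with 955 and rose to 1.18 (FDR 1.39e-07) with SNS-032 by the authors' deposited table. Against the mitochondrial mRNAs these rises turned into values of -0.31 and -0.48 for KNTC1 and -1.12 and -1.16 for CENPH, so the direction depends on the scaling.

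Other spindle, centrosome and cytokinesis genes had 16 of 42 listed, with 14 called lower and 2 higher with 955, and 13 lower and 2 higher with SNS-032. The shares of all listed genes were 50.1% and 52.5% lower, and 35.2% and 37.8% higher. HAUS8, an augmin subunit that seeds branching microtubules, fell to -3.71 (SE 0.38, FDR 6.74e-07) and -3.51, and KNSTRN, a kinetochore-associated partner of astrin, to -2.51 and -2.36, in the authors' deposited table. The 2 genes called higher, TUBGCP6 of the gamma-tubulin ring complex and CPAP of the centriole, were named after their values were seen and stood at 1.44 and 1.23 with 955 in the authors' deposited table. Against the mitochondrial mRNAs they were at -0.63 and -0.84. Regulators of G2/M entry had 7 of 19 listed, all 7 called lower with both treatments, beside 50.1% and 52.5% of all listed genes. CKS2, a small subunit bound to CDK1, was at -3.40 (SE 0.51, FDR 0.000682) and -4.17 (SE 0.54, FDR 0.000226), and CDK1 itself at -1.71 (FDR 2.96e-10) and -1.53, in the authors' deposited table. WEE1, the kinase that holds CDK1 inactive, was at -1.36 (FDR 1.29e-05) by 1 h and at -2.79 (FDR 5.43e-12) by 6 h in the authors' deposited table.

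The list of DREAM and MuvB regulators, which also held further E2F genes and NF-Y genes, had 12 of 23 listed, and MYBL2 and E2F4 are not analysed here. With 955 at 6 h, 9 were called lower and none higher, with a median of -1.32, and with SNS-032 10 were called lower. Among all listed genes 50.1% and 52.5% were called lower. The largest falls with 955 were E2F6, a repressor E2F, at -2.60 (SE 0.26, FDR 1.84e-08), and NFYA, a subunit of the CCAAT-binding factor NF-Y, at -1.78 (SE 0.17, FDR 9.78e-09) in the authors' deposited table. The MuvB core genes LIN9 and LIN54 were at -1.13 and -1.42 with 955 in the authors' deposited table. At 1 h these regulators had a median of -0.77, all 12 values were negative and 3 were called lower, beside 7.71% of all listed genes. Those called were E2F2, E2F7 and E2F8, and E2F2 and E2F7 were listed through that call alone. The count and the median of the list include both genes, so neither supports an earlier fall of these regulators. LIN9 and LIN54 were at -0.79 and -0.74 at 1 h, short of the fold bound. Over the 41 mitotic genes, the 1 h median was -0.14, and over all listed genes it was -0.05.

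Limits on single genes apply to the counting. Without stated use of strand, reads cannot be told apart where exons overlap another gene, as annotation gives for CCNA2, CCNF, PLK1, FZR1, SGO2, SGO1, CENPA, SPC24, KIF20A, KIF23, HMMR and CDCA3. Loci named as pseudogenes exist for CCNB2, AURKA, NEK2, BUB1, AURKB, CDC20, UBE2C, BUB3, PTTG1, SGO1, DLGAP5 and CDCA3. How reads shared with them were counted is not given in the sources used here. Because listing required a change, the table allows no full check of the labelled cell type. Of 27 T lymphoblast markers 12 were listed, at average levels from 3.74 (RAG2) to 10.14 (ZAP70) log2 CPM. Of the 15 B-cell and myeloid markers reported here CD79A was listed, at 3.94, within that range.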

How the data were processed

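RNA-seq of 12 MOLT4 libraries (3 per group) was deposited as a single table of the authors' comparisons with DMSO. Per the file headers, it gives for each gene a deposited log2 fold change, an average level (log2 CPM), an F statistic (a score), a p-value and an FDR. The submitters' processing notes name the build hg38 and DESeq2, without a role, and the header does not say which model gave the F statistic; the aligner and counting rule are not given in the sources used here. Sequencing depth is unknown, and no library has values of its own here.

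The SE of a log2 fold change was taken as its absolute size divided by the square root of F. The denominator degrees of freedom of the F test were solved from F and the p-value, and were most often 23.3. Differences between treated groups were tested with an approximate contrast whose SE is the root mean square of both SEs, with Benjamini-Hochberg adjustment over 5759 listed genes, and the procedure was tested on simulated data. The number of tests, 28395, was solved from FDR and p ranks. Calls needed an FDR under 0.05 and a log2 fold change of 1 or more in absolute size. Alternatives were an FDR of 0.01, no fold bound, a bound of 1.5, an average level of at least 3 log2 CPM, and scaling to the mitochondrial mRNAs or the median listed gene. Gene names and promoters came from RefSeq (GRCh38.p14) and exons from GENCODE 29; Python 3.11.15, scipy 1.17.1 and pandas 2.3.3 were used.

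The members and lists were chosen with earlier results of these data known. Full values were planned for the listed members with the largest and the smallest fall of each role group with 955 at 6 h. The same held for members called at 1 h. For some of these, among them KIF14, CENPF and NDC80, only part of the values is given. Other members are named freely. From each further list the 2 genes with the largest absolute change with 955 at 6 h are named, with CDK1, MYBL2, E2F4, LIN9 and LIN54. A gene of the replication list and one of the B-cell and myeloid list are not reported here and were left out of the counts of those lists.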

Additional observations from a re-analysis of the deposited data

Results flagged for a closer look

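Between 1 h and 6 h of 955 the change against DMSO differed for 36 of the 41 listed mitotic genes by the approximate contrast, all lower at 6 h. E2F2 and E2F7, an activator and a repressor of cell cycle transcription, differed the other way. Both were called against DMSO at 1 h alone, so their place in the table rested on the 1 h value that enters this difference. The adjusted p-values given for these 2 genes are therefore no independent support for a return towards 0. In the authors' deposited table E2F2 was at -1.16 (FDR 1.73e-05) at 1 h and 0.04 at 6 h, a difference of 1.20 (SE 0.14, adjusted p 5.73e-08 by the approximate contrast). E2F7 was at -1.25 (FDR 2.37e-05) and 0.01 in the authors' deposited table, a difference of 1.26 (SE 0.15, adjusted p 1.3e-07 by the same contrast). Against the mitochondrial mRNAs E2F2 was at -1.83 at 1 h and -2.03 at 6 h, and E2F7 at -1.93 and -2.06, so their return towards 0 depends on the scaling. The part of scaling in the difference was not tested further.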

How the results depend on the processing

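No paired analysis was possible because the deposited table has no value per library, and for the same reason no library could be left out in turn. With 955 at 1 h the count of mitotic genes called lower was 2; it was 5 with no fold bound, 0 with a bound of 1.5 and 10 against the mitochondrial mRNAs. Against the median listed gene, the counts called lower were 19 for 955 at 6 h (from 39) and 18 for SNS-032 (from 40). For 955 at 6 h against 1 h the count was 17 (from 36). No share over all listed genes is given here for the counts under either scaling. The medians at 1 h, 955 at 6 h and SNS-032 moved to -0.82, -4.08 and -4.37 against the mitochondrial mRNAs, and the 6 h medians to -0.98 and -0.96 against the median listed gene. Against the median listed gene the SNS-032 values of ECT2, ASPM and E2F8 became 0.036, 0.060 and 0.029, that of PLK4, not called before, became 0.156, and with 955 the values of ECT2 and SPC24, not called before, became 0.088 and 0.053. Against the mitochondrial mRNAs these values became negative, with 955 first and SNS-032 second: KNTC1 -0.31 and -0.48, TUBGCP6 -0.63 and -0.62, CPAP -0.84 and -1.20, ANAPC16 -1.02 and -1.35, CD79A -1.10 and -1.24, CENPH -1.12 and -1.16, E2F2 -2.03 and -2.31, and E2F7 -2.06 and -2.26. The counts at 6 h under the other alternatives, an FDR of 0.01, no fold bound, a bound of 1.5 and an average level of at least 3 log2 CPM, stayed within 1.5 times those given. Between the compounds no mitotic gene was called under any alternative run for that contrast, which were the larger of both SEs, an SE that ignores the shared control, no bound on the difference and both scalings. These changes follow from the shift each scaling applies and from each bound; the cause of the difference between scalings was not tested. Depth is unknown, and the imprecise estimates of SPC25, TTK and the B-type cyclins limit what can be said of them.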

Other observations

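Genes of the G1/S and DNA replication programme, which act before the mitotic genes in the cycle, were also lower at 6 h. Of the 43 genes reported here 20 were listed, all 20 called lower with 955 (median -1.84) and 18 called lower with SNS-032 (median -1.82). The shares of all listed genes called lower were 50.1% and 52.5%. PCNA, the sliding clamp of the replication fork, was at -3.14 (SE 0.15, FDR 2.02e-13) with 955 and -4.21 (SE 0.16, FDR 2.98e-15) with SNS-032 by the authors' deposited table. It was the only gene of the lists tested here that was called different between the treatments, by 1.07 (95% interval 0.76 to 1.39, adjusted p 0.000358 by the approximate contrast), at doses that differ. GINS3, a subunit of the replicative helicase, was at -2.76 and -2.70 in the authors' deposited table.

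Of the 12 listed T lymphoblast markers, 6 were called lower and 5 higher with 955 at 6 h, and 5 lower and 6 higher with SNS-032. Among all listed genes, 50.1% were called lower and 35.2% higher with 955, and 52.5% and 37.8% with SNS-032. The 5 called higher with 955, named after their values were seen, were CD4 (2.26), CD7 (1.59), CD38 (1.55), ZAP70 (1.53) and BCL11B (1.45) in the authors' deposited table. Against the mitochondrial mRNAs CD4 was at 0.19 and the other four were negative, at -0.48, -0.52, -0.54 and -0.62, so these rises depend on the scaling. The surface antigen gene CD2 was at -3.17 (FDR 2.6e-12) and -3.35, and the recombinase gene RAG2 at -3.02 (FDR 2.37e-09) and -3.07, in the authors' deposited table.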
